A study of Mus musculus with 192 samples.

Results

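Gene-desert windows are accessible DNA windows that lie far from any protein-coding gene start. They were taken from a deposited list of 50000 windows of 500 bp, each centred on the summit of an open-chromatin peak and placed on the mouse build mm9. A window was kept if its peak call had 1 summit only (40896 windows), if its midpoint lay outside every protein-coding and long non-coding gene body (18117 of these), and if the nearest start of a protein-coding transcript was more than 100 kb away. This left 3671 gene-desert windows, or 7.34% of the list (95% Wilson interval 7.12 to 7.57%). The choice used position and summit number only, and no measure of accessibility.

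The windows come from Pi-ATAC, in which fixed and permeabilised cells are cut in bulk by a transposase that enters open chromatin, stained for proteins and sorted singly into wells. In the study's methods for this mixture the staining followed the transposition. 2 groups were mixed before fixation: 4T1 cells, an established mouse breast cancer line, sorted as EpCAM-positive, and splenocytes from a spleen of an MMTV-PyMT mouse that had no tumour, sorted as CD45-positive. EpCAM is a surface protein of epithelial cells and CD45 one of leukocytes, and the PyMT oncogene of the donor mouse is driven by the MMTV promoter, which is active mainly in mammary epithelium. Titles gave 96 cells per group, while source names gave 95 and 97, and no drug was applied to either group. From its peak names the list was taken to hold both groups together, which the study's methods do not settle, so each value below describes 1 list without replicates and nothing could be tested between the groups. The list carried no count or score, so depth per window is unknown, and the intervals given for shares cover counting error over windows only. At marker genes, the list held 2 windows within 1 kb of a start of Epcam and 1 at the keratin gene Krt8. It held 1 at the T-cell receptor component Cd3e and 0 at the CD45 gene Ptprc. Because the list is read as pooled, these counts cannot check the labels of the groups.

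Gene deserts are long stretches of sequence without protein-coding genes, often beside genes for developmental regulators. Enhancers within them can act over long distances by looping to a promoter, and their accessible cores usually hold short binding sequences of transcription factors. AP-1, made of Fos, Jun and related proteins, binds at many enhancers of epithelial and cancer cells, PU.1 and IRF factors bind at enhancers of leukocytes, TEAD factors act in the Hippo pathway, and CTCF marks insulators and loop anchors.

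Windows from the gene-free intervals with the most members show what such elements look like in sequence. For each of the 8 fullest intervals, the window whose central 100 bp held the most consensus words was taken, and 6 of these are shown to display the AP-1, IRF, NFI, PU.1, TEAD, CTCF and RUNX words that recur in the results. Each is the central 200 bases on the plus strand of mm9, printed in lower case, and capitals mark the consensus words of 8 factors in either orientation. None lies in an annotated gene, so all are intergenic.
Celf2 to Gata3 window, chr2:8927590-8927789: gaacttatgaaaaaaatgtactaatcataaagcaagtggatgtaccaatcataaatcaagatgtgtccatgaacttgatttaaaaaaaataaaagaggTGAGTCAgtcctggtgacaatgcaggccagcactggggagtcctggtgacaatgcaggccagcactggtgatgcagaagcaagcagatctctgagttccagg
Gm2574 to Lmo4 window, chr3:142738681-142738880: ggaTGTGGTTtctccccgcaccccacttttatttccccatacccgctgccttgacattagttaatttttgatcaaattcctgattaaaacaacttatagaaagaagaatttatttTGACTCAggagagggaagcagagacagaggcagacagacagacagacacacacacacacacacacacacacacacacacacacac
Klf4 to Actl7b window, chr4:56621750-56621949: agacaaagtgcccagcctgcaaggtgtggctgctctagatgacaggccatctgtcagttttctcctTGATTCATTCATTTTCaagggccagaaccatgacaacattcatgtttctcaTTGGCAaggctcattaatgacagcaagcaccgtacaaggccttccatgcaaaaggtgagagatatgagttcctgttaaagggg
Klf14 to AB041803 window, chr6:31029670-31029869: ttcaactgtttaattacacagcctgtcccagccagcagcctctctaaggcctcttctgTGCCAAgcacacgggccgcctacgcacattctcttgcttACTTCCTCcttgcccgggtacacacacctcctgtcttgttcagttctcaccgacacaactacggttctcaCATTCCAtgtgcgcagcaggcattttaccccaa
Nr2f1 to Arrdc3 window, chr13:80696501-80696700: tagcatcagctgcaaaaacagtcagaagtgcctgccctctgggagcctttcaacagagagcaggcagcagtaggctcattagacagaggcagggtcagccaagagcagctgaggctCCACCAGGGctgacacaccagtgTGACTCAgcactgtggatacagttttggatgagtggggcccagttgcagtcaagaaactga
Pcdh7 to G6pd2 window, chr5:60147943-60148142: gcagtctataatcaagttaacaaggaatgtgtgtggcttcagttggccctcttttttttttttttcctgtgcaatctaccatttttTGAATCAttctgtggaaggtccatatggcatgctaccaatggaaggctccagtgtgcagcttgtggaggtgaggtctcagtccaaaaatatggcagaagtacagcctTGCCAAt

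In the window between Celf2 and Gata3, 872.5 kb from the start of Gata3, an AP-1 word was centred 1 bp from the summit in sequence of 34.6% GC over the whole window. The window between Gm2574 and Lmo4 had its AP-1 word 18 bp from the summit, beside a run of CA repeats, and 25.8% of its 24-base words occurred more than once in the genome. The window between Klf4 and Actl7b held an AP-1 word, directly followed by an IRF word, and an NFI word on the other side of the summit, 31, 23 and 20 bp from it. The window between Klf14 and AB041803 had a PU.1 word 1 bp from the summit, with an NFI word at 39 bp and a TEAD word at 70 bp. The window between Nr2f1 and Arrdc3 held a CTCF word at 20 bp and an AP-1 word at 42 bp. The window between Pcdh7 and G6pd2, 2037.7 kb from the nearest start, had an AP-1 word 11 bp from the summit. These 6 windows were selected for their words and do not stand for all gene-desert windows, of which 31.4% held none of the 8 main words.

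The label of gene desert was checked against the annotation, since a window can be far from a gene start and still lie beside the end of a long gene. The median distance to the nearest protein-coding start was 213.3 kb (quartiles 141.9 and 391.1 kb, range 100.1 to 2178.9 kb), and the median distance to the nearest protein-coding gene body was 179.9 kb. In all, 3040 windows (82.8%) lay more than 100 kb from every protein-coding body, 585 lay 10 to 100 kb from one, and 46 (1.25%) lay within 10 kb. The gene-free intervals around the windows had a median length of 734.6 kb, and 65.3% of the windows lay in intervals over 500 kb and 37.5% in intervals over 1 Mb. Intervals of at most 200 kb, where a flanking gene must start beyond its near end for the rule to be met, held 157 windows. The label therefore holds for most windows but not for those close to a gene end. Windows lay about evenly upstream (1889) and downstream (1782) of the gene with the nearest start.

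Few other annotated features were found at these positions. Only 11 windows had their midpoint in a gene of another type, of which 8 were pseudogenes, 2 immunoglobulin variable segments and 1 a miRNA gene. Starts of long non-coding genes were within 1 kb of 16 windows and within 10 kb of 73, and 3261 windows (88.8%) were more than 100 kb from one.

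Accessible windows became sparser with distance from genes and were sparsest in the deepest deserts. Sequence that meets the position rule spans 761.2 Mb, or 29.8% of the assembled genome, so gene-desert windows had a density of 4.82 per Mb. Single-summit intergenic windows had 13.4 per Mb at 10 to 100 kb from a start and 19.3 per Mb at 1 to 10 kb. Within the deserts the density was 7.28 per Mb at 100 to 200 kb (1702 windows), 4.41 at 200 to 500 kb (1340 windows), 2.97 at 500 kb to 1 Mb (477 windows) and 2.41 beyond 1 Mb (152 windows). The decline thus continued beyond the 100 kb limit. The base composition of the available sequence fell along the same distances, from 40.8% GC at 100 to 200 kb to 36.9% beyond 1 Mb, and its part in the decline was not tested.

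**Figure D1:**
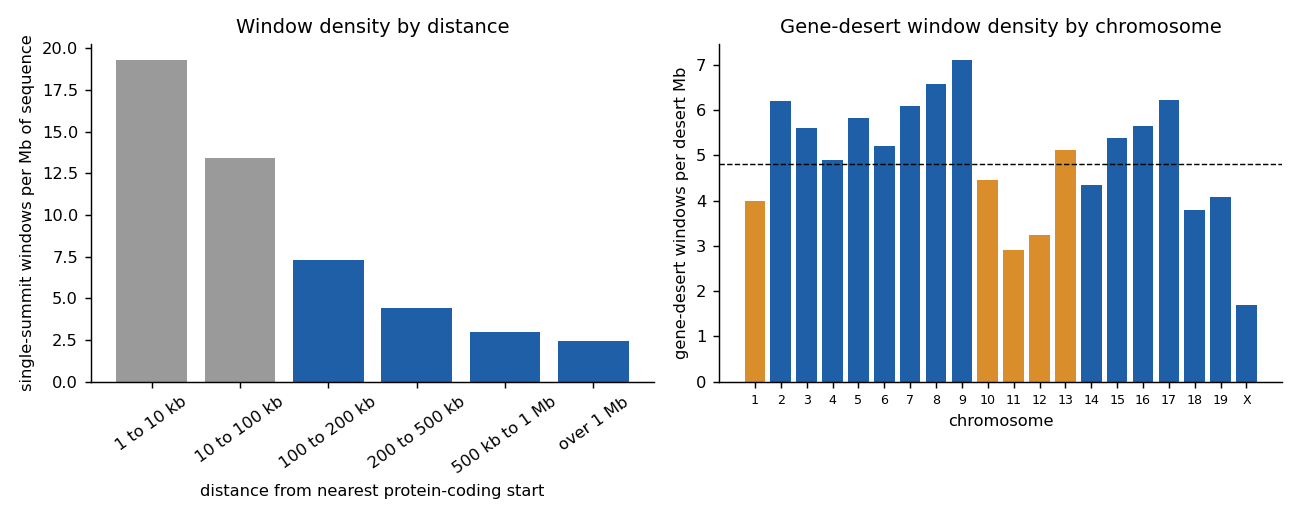
The left panel plots single-summit intergenic windows per Mb of sequence against distance from the nearest protein-coding start, with gene-desert classes in blue, and falls from 19.3 to 2.41 per Mb. The right panel plots gene-desert windows per Mb of desert sequence for each chromosome, with chromosomes 1 and 10 to 13 in orange and the genome value of 4.82 as a dashed line, and X is lowest at 1.7.

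Chromosomes differed in how many accessible windows their deserts held. Chromosome 3 held the most gene-desert windows, 342 in 61.1 Mb of desert. Per desert Mb, chromosome 9 (7.11), chromosome 8 (6.57), chromosome 17 (6.22) and chromosome 2 (6.2) were highest, and X was lowest at 1.7, or 0.335 times the autosomes (5.08). The whole list was also sparse on X, with 6.29 windows per Mb against 20.5 on the autosomes. Gene-desert windows made 9.51% of the listed windows on X and 7.3% on the autosomes, so the low value is not particular to deserts. Chromosomes 9, 8, 17 and 2 had 24.9, 26, 24.9 and 23.5 listed windows per Mb. Chromosome 19, with 24.3, had 4.08 per desert Mb. Of 143 gene-free intervals over 200 kb on X, 65 held no window from the list, and of 1591 such intervals in the genome 264 held none. Chromosomes 1 and 10 to 13 together had 3.97 per Mb against 5.14 on the others, although chromosome 13 alone had 5.12. Those 5 chromosomes were grouped because, by the call numbers in the peak names, fewer of their calls over the whole list had been kept, so a lower share there restates the choice. Of the calls numbered between neighbouring listed desert windows, 26.7% were listed there and 34.2% elsewhere, and such calls numbered 27.9 and 23.9 per Mb. The part of this in the lower density was not tested. Over the whole list 38% of numbered calls were kept, against 32.2% between neighbouring desert windows, and numbered calls were 45.9 and 24.9 per Mb.

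Peaks with several summits were rare at desert positions. The same position rule found 219 further windows from such calls, which made 5.63% of the 3890 windows there (95% Wilson interval 4.95 to 6.4%), against 18.2% of all windows and 35.1% of windows within 1 kb of a start.

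Gene-desert windows were spread over many intervals, with a few that held far more than the rest. A total of 1088 intervals between protein-coding gene bodies held at least 1 window, with a median of 2 and a maximum of 22, and 377 held 1 only. The 51 intervals with 10 or more windows held 660 of them. The 50 fullest intervals held 650 windows (17.7%) on 10.1% of the length of all intervals that held any. They were ranked by these same counts, and that choice favours a window share above the length share.

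The fullest interval was that between Celf2, which encodes an RNA-binding splicing regulator, and Gata3, a transcription factor of T cells and luminal mammary epithelium (chr2:7002349-9778704). It held 22 gene-desert windows among 29 listed windows over 2776.4 kb, and 7 of the 22 had an AP-1 word. All 14 windows whose nearest start was Gata3 lay downstream of it, 113.3 to 1149.0 kb from its start. The second interval lay between the predicted gene Gm2574 and Lmo4, a LIM-only cofactor active in mammary epithelium (chr3:142626757-143851493), and all 18 of its listed windows were gene-desert windows.

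Another 3 intervals held 18 windows each. Between Klf4, a zinc-finger factor of epithelial differentiation, and Actl7b, an actin-like protein (chr4:55545348-56752878), 11 of 18 windows had an AP-1 word and 8 an NFI word. All 13 windows nearest to Klf4 lay upstream of the gene, 126.7 to 541.9 kb from its start. Between Klf14, a factor of the same family, and AB041803 (chr6:30908991-31115522), the windows were packed into 50.9 kb of an interval of 206.5 kb that held 35 listed windows. Between Gm1840 and Efnb2, the gene of the transmembrane ligand ephrin-B2 (chr8:5640997-8617433), they spanned 2625.3 kb.

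The last 3 of the 8 fullest intervals held 16 windows each and were long. They lay between the nuclear receptor gene Nr2f1 and the arrestin-domain gene Arrdc3 (chr13:78339019-81022644), between the neural adhesion gene Ncam2 and the mitochondrial ribosomal gene Mrpl39 (chr16:81624531-84717820), and between the protocadherin gene Pcdh7 and G6pd2 (chr5:58520591-62200081). The interval between Igfbp7 and Lphn3 also held 16 windows and was left out because ties were broken by chromosome and position. Densities of the 8 intervals ranged from 0.435 windows per 100 kb between Pcdh7 and G6pd2 to 8.72 between Klf14 and AB041803. Only 1 of the 16 windows between Pcdh7 and G6pd2 had an AP-1 word, and none of its neighbouring windows lay within 12500 bp of each other.

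**Figure D2:**
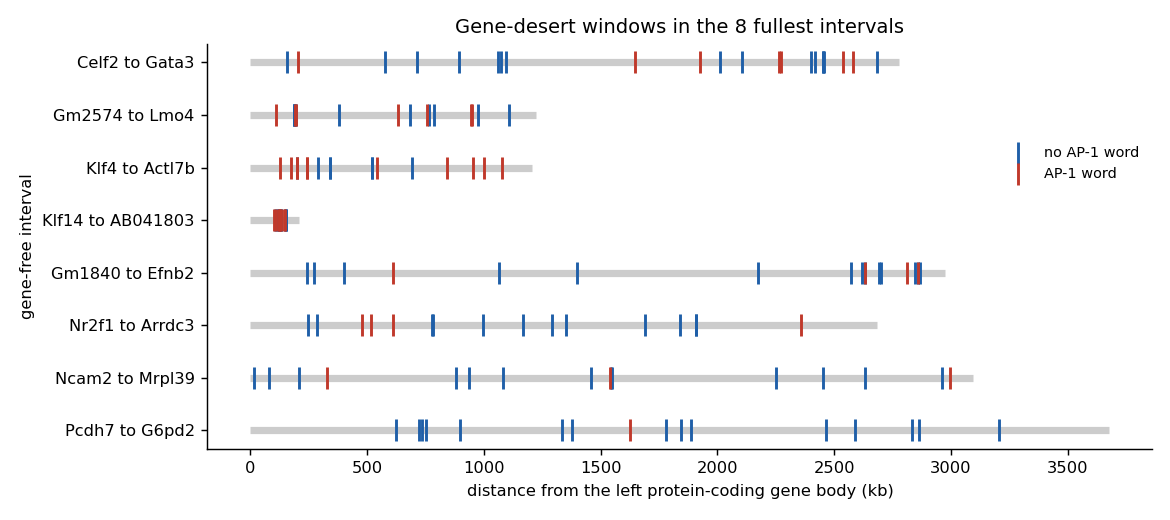
Each grey bar is 1 of the 8 gene-free intervals with the most gene-desert windows, drawn to scale in kb from the left gene body, and each tick is a window, red where it holds an AP-1 word. Windows between Klf14 and AB041803 sit within 50.9 kb, whereas those between Celf2 and Gata3 spread over 2526.4 kb. The interval between Igfbp7 and Lphn3 ties with the last ones at 16 windows and is not drawn.

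The observed AP-1 share varied among the intervals with 10 or more windows, but even the fullest held only 22. Whether the shares varied by more than counting error was not tested. Over the 51 intervals with 10 or more windows, the share with an AP-1 word had a median of 26.7% and ran from 0 to 61.1%, the highest being that between Klf4 and Actl7b. In 2 of them no window had the word: 0 of 14 windows between Kazn and Prdm2 and 0 of 12 between Cdh26 and 4930591A17Rik. These last 2 intervals were picked out after their values were seen.

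Most gene-desert windows stood alone. The median distance to the nearest other listed window was 36.1 kb (quartiles 7.98 and 110.3 kb), against 2.86 kb for all windows and 8.53 kb for intergenic windows at 10 to 100 kb. Another window lay within 12500 bp of 30.8% (95% Wilson interval 29.3 to 32.3%), against 71.2% of all windows and 58.7% of those at 10 to 100 kb. More than 100 kb of sequence separated 1004 windows (27.3%) from any other, against 4.25% of all windows. When windows no more than 12500 bp apart were joined, 2541 (69.2%) were alone and 521 (14.2%) lay in clusters of 3 or more, against 28.8% and 51.4% of all windows. Gene-desert windows overlapped each other in 48 pairs, which share sequence.

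A small number of dense clusters stood against this sparse background, and 14 clusters held 5 or more gene-desert windows each (100 windows in all). The largest (chr6:31006104-31080943) lay a median of 125.9 kb from the start of Klf14 and held 32 listed windows, of which 18 were gene-desert windows, 8 came from calls with several summits and 6 were within 100 kb of a start. Its gene-desert windows were a median of 2.08 kb apart, 8 of the 18 had an AP-1 word, 7 an NFI word and 3 a PU.1 word, and on average 1.43% of their 24-base words occurred more than once in the genome.

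The next 5 clusters were smaller and lay beside genes of varied function. A cluster of 9 windows in 23.5 kb (chr7:152275158-152298681) was centred 166.7 kb from the start of Ccnd1, which encodes the cell-cycle regulator cyclin D1, and 177.3 kb from that of Tpcn2, an endolysosomal ion channel gene. It was the richest of the 6 in GC, with a median of 54.2%, and 4 of its windows had an AP-1 word. Another cluster of 9 windows in 26.3 kb (chr9:116228634-116254951) was 154.4 kb from the start of Tgfbr2, the gene of a TGF-beta receptor chain, and 4 had an AP-1 word.

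A cluster of 7 windows in 32 kb lay between Hmga2, an architectural chromatin protein, and 4921513I03Rik (chr10:120041545-120073568), 147.9 and 141.4 kb from their starts, and 5 of the 7 had an AP-1 word. Another cluster of 7 windows, in 18.6 kb, was 117.8 kb from Frmd6, a FERM-domain gene linked to the Hippo pathway, and 254.6 kb from Tmx1, a thioredoxin-like membrane protein gene (chr12:71795997-71814580). The most compact, 7 windows in 11.4 kb, lay 191.8 kb from Gm2574 and 1048.0 kb from Lmo4 (chr3:142812155-142823603), and RUNX words were in 4 of its windows. None of these 5 clusters held any listed window that was not a gene-desert window, and in 4 of them, near Ccnd1, 4921513I03Rik, Frmd6 and Gm2574, at most 1 call number in the range was missing from the list, while near Tgfbr2 9 of 13 were listed.

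Each gene-desert window was assigned to the protein-coding gene with the nearest start, which says nothing about the gene it acts on. In all, 1437 of 22208 protein-coding genes (6.47%) were nearest to at least 1 window and 614 to 1 only. The 208 genes with 5 or more (0.937% of genes) took 37.4% of the windows. Tbl1xr1, part of the NCoR corepressor complex, had the most, 16 windows at 123.6 to 1043.1 kb from its start, of which 7 had an AP-1 word. Ncam2 followed with 15, Gata3 and Pcdh7 with 14, Klf4 with 13, and Efnb2 and Lmo4 with 12. A count of 11 was found for the cadherin gene Cdh9, the predicted gene Gm9843, the adhesion receptor gene Lphn3, Tgfbr2 and the homeobox gene Zfhx3, and a count of 10 for the ephrin ligand gene Efna5, the ephrin receptor gene Epha4 and G6pd2.

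Genes with many windows differed widely when counts were set against the desert sequence nearest to each. Gm9843 had 53.7 windows per desert Mb, Tgfbr2 49.1, Klf4 27.4, Zfhx3 22.7 and Lmo4 19.9, all several times the genome value of 4.82. The genes were named for their high counts, and that choice favours densities above the genome value. Ncam2 had 6.21, Efna5 5.62, Lphn3 4.6, G6pd2 4.44, Pcdh7 4.25 and Cdh9 4.2, nearer to the genome value and in long deserts. That value pools all distances, and density fell to 2.97 per Mb at 500 kb to 1 Mb and 2.41 beyond 1 Mb. Windows nearest to Pcdh7, Ncam2 and Cdh9 lay a median of 1145.2, 763.5 and 618.4 kb from their starts. Densities of genes were not compared at matched distance.

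Gene lists chosen for these cells and for deserts differed in the same way. Over all protein-coding genes, 6.47% were nearest to a window. By list the share ran from 6.06% of leukocyte surface and signalling genes to 73.3% of neuronal adhesion and receptor genes. Of 34 epithelial and mammary regulators, 10 were nearest to a window, with 65 windows in all and 13.1 per desert Mb. Beside Gata3 and Klf4, these included Sox9, a progenitor factor, with 10 windows at 161.5 to 248.1 kb (46.3 per desert Mb, 7 with an AP-1 word), and Klf5, an epithelial zinc-finger factor, with 9 windows (27.7 per desert Mb, 6 with an AP-1 word). Of 10 factors of epithelial-mesenchymal transition, 5 were nearest to 25 windows in all (12.6 per desert Mb). Tcf4, an E-protein, had 9 (55.2 per desert Mb), Zeb2, a repressor of epithelial genes, had 8 (4.83), Hmga2 had 6 (113.2) and Twist2 had 1.

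Signalling genes were also dense. The 30 growth factor ligands and receptors had 13 genes with 39 windows (14.8 per desert Mb), led by Tgfbr2, the bone morphogenetic protein genes Bmp2 and Bmp7 with 5 each, and Tgfb2 with 4. The 30 immediate early and feedback genes had 11 with 50 windows (13 per desert Mb), led by the mRNA-decay gene Zfp36l2 with 9 (128.6 per desert Mb, in 70 kb of desert sequence), the antiproliferative gene Btg1 with 7, and Dusp10, a MAP kinase phosphatase gene, and the pseudokinase gene Trib1 with 6 each. Among 21 genes of the AP-1 and ATF family, 2 had windows, Maf with 9 and Jun with 3 (16.3 per desert Mb for the list). That is 9.52% of the list, against 6.47% of all protein-coding genes. Among 16 TEAD, NFI and RUNX genes, 5 had 12 windows in all (10.5 per desert Mb), with Runx1 at 5 and Nfib, Runx2 and the TEAD cofactor gene Vgll3 at 2 each.

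The lists of leukocyte genes differed in share and density. Of 34 leukocyte transcription factor genes, 14 were nearest to a window, with 40 windows in all (11.8 per desert Mb), led by the chromatin organiser Satb1 with 8, Ets1 with 6, Bcl11a with 4 and Foxp1 with 3. Of 33 matched leukocyte surface and signalling genes, the chemokine receptor gene Cxcr4, with 5 windows, and Cd83, with 1, had any (3.55 per desert Mb). That is 6.06% of the matched genes, near the 6.47% of all protein-coding genes, and the density rests on 6 windows. The share was 41.2% for the leukocyte transcription factor genes. A list of 30 neuronal adhesion and receptor genes had the most genes with a window, 22, and the most windows, 115, but these lay in 34.8 Mb of desert sequence, so the density was 3.31 per Mb, under the genome value of 4.82. The glutamate receptor gene Grm7, with 10 windows, was the densest of its 4 leading genes at 9.11 per desert Mb. The lists are short and were chosen with results of these windows known, so the densities are descriptions. The genome value pools all distances, while density fell from 7.28 per Mb at 100 to 200 kb to 2.41 beyond 1 Mb. Desert sequence nearest to a gene also differed in length, with 53 kb for Hmga2 and 3292 kb for Pcdh7. List densities were not compared at matched distance, so they do not show depletion or enrichment at a given distance.

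The windows farthest from any start and those nearest to the limit mark the ends of the range. The farthest lay 2178.9 kb from Cntnap5b, a neuronal adhesion gene, on the side of Cdh20, and had 38.4% GC and an NFI word. The next were 2156.6 kb from the lipid kinase gene Pik3c3 with Celf4 on the other side, 2037.7 kb from Pcdh7 (the window printed above), and 1963.2 kb from 4930555F03Rik and 1954.4 kb from Aga in the same interval. Just inside the limit, at 100.1 to 100.3 kb, were windows beside Fut8 with Max on the other side, Ednrb with Pou4f1, Nxt1 with Cd93, Usp6nl with Celf2, and Smad1 with Otud4, and that beside Usp6nl was 6.51 kb from a gene body. Just outside, at 99.8 to 100 kb, were windows beside Irx4, 0610007P08Rik, Slc7a12, 4933402D24Rik and Pgrmc2.

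Gene-desert windows were richer in GC than the sequence around them and poorer than other windows. Their median GC was 46.4% (quartiles 43 and 49.4%, range 24.8 to 74%), against 41.4% for flanks of the same length 2 kb on either side that overlapped no listed window (7157 flanks). All windows had a median of 51.2%, intergenic windows at 10 to 100 kb 48.8%, and windows within 1 kb of a start 60.2%. They held a median of 4 CpG dinucleotides, with an observed over expected ratio of 0.166 against 0.289 for all windows. CpG island-like composition, taken as at least 50% GC with a ratio of at least 0.6, was found in 23 windows (0.627%), against 23.1% of all windows. The composition thus lay between flanking desert sequence and promoters, nearer to the former.

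Repeated sequence was common at these positions. On average 14% of the 24-base words of a gene-desert window occurred more than once in the genome, about as in the flanks (14.7%) and above all windows (6.12%). In 311 windows (8.47%) at least 50% of the words were repeated, against 2.39% of all windows and 10.4% of flanks. The mean rose with distance from a start, from 9.63% at 100 to 200 kb to 14.2%, 22.7% and 33.3% in the next classes, so the deepest windows lay in the most repeated sequence. Reads from such sequence map less uniquely, and its part in the results was not tested beyond the values given beside them.

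AP-1 and NFI words were the most frequent of the 8 main words in gene-desert windows, with overlapping intervals, and AP-1 words showed the widest gap to the flanks in percentage points. NFI words were the more frequent of the pair in each distance class beyond 200 kb. The word TGANTCA, read on either strand, was in 1032 of 3671 windows, or 28.1% (95% Wilson interval 26.7 to 29.6%). It was in 24.8% of all 50000 windows, in 33% of intergenic windows at 10 to 100 kb, in 10.8% of windows within 1 kb of a start, and in 14.6% of flanks (13.8 to 15.4%), a ratio of windows to flanks of 1.93. Of the windows with the word, 753 had 1 match, 228 had 2, 46 had 3 and 5 had 4. The form TGACTCA was in 21.4% of windows and 7.87% of flanks (a ratio of 2.73), whereas TGAATCA was in 9.62% and 7.53% (1.28), so the excess was larger in the first form, which is the classical AP-1 site.

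The excess over the flanks was not confined to windows of high GC. In bins of 5% GC from 30 to 60%, the share with an AP-1 word was 21.1 to 30.4% in windows and 11.5 to 15.1% in flanks, and it was higher in windows in each of the 6 bins. Against other listed windows it was lower at the commonest GC values, with 27.4% against 29.7% of all windows and 31% of intergenic windows at 10 to 100 kb for 40 to 45% GC, and 29.6% against 32.6% and 36.2% for 45 to 50% GC. On chromosomes 1 and 10 to 13, with their lower share of listed calls, 33.3% of gene-desert windows had AP-1 words, against 26.6% on the other chromosomes.

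Most other main words differed less from the flanks. TEAD words (TGGAATG) were in 397 windows, or 10.8%, against 8.25% of all windows and 8.77% of flanks. NFI words (TTGGCA) were in 1002, or 27.3%, against 24.4% and 23.2%. RUNX words (TGTGGTT) were in 481, or 13.1%, against 11.3% and 10.5%. For these 3 words the Wilson intervals of windows and flanks did not overlap, but windows are richer in GC than flanks. Within bins of 5% GC from 30 to 60%, RUNX words were more frequent in windows in each of the 6 bins. TEAD words were more frequent in windows at 40 to 55% GC. They were less frequent at 30 to 35% (8.77 against 9.19%), at 35 to 40% (6.96 against 8.73%) and at 55 to 60% (11.1 against 12.9%). NFI words were at 28.3 against 23.3% at 40 to 45% GC and 28.3 against 23.2% at 45 to 50%. At 50 to 55% they were at 26.9 against 26.6%, and at 55 to 60% at 31.1 against 22.9%. They were at 22.9 against 23.3% at 35 to 40% and at 12.3 against 22.1% at 30 to 35%.

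Of the words of leukocyte factors, PU.1 words had no single direction against the flanks at fixed GC, and IRF words were mostly lower. PU.1 words (GAGGAAGT) were in 150 windows, or 4.09% (3.49 to 4.78%), against 4.63% of all windows and 2.91% of flanks (2.54 to 3.32%). At fixed GC the PU.1 shares of windows and flanks were 1.75 and 1.45% at 30 to 35% GC, 2.03 and 2.56% at 35 to 40%, and 3.26 and 3.49% at 40 to 45%. They were 4.8 and 3.23% at 45 to 50%, 4.11 and 4.03% at 50 to 55%, and 8.89 and 1.43% at 55 to 60%. The last values come from 135 windows and 70 flanks. PU.1 words were thus less frequent in windows at 35 to 45% GC and more frequent in the other bins, in part by little. IRF words (GAAANNGAA) were in 575, or 15.7%, against 13% of all windows but 18.7% of flanks, and they are rich in A and T. Within windows and flanks of 45 to 50% GC, IRF words were in 15.8% and 13.3%. In each other bin from 30 to 60% GC they were less frequent in windows than in flanks. The shares were 21.2 and 22.7% at 35 to 40% GC, 17.4 and 18.1% at 40 to 45%, and 11.3 and 13.7% at 50 to 55%.

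Insulator and promoter words were not prominent. CTCF words (CCANNAGGG) were in 332 windows, or 9.04%, against 10.8% of all windows and 5.92% of flanks, a ratio to the flanks of 1.53. Little of this remained in the GC bins with the most windows. There the shares were 5.92% of windows and 5.81% of flanks at 40 to 45% GC, 9.53 and 8.84% at 45 to 50%, and 13.9 and 12.1% at 50 to 55%. They were 2.9 and 3.84% at 35 to 40% GC and 0 and 2.18% at 30 to 35%. At 55 to 60% GC they were 22.2 and 14.3%, from 135 windows and 70 flanks. ETS words (CCGGAAGT), frequent at promoters, were in 22 windows, or 0.599%, against 2.94% of all windows and 7.26% of those within 1 kb of a start, with a ratio to the flanks of 1.95 that rests on few windows. SP words (GGGGCGG), bound by promoter factors, were in 2.75%, against 19% of all windows and 45.1% of those within 1 kb of a start. GATA words (AGATAA) were in 23.9%, above the 16.5% of all windows but below the 31.9% of flanks.

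**Figure D3:**
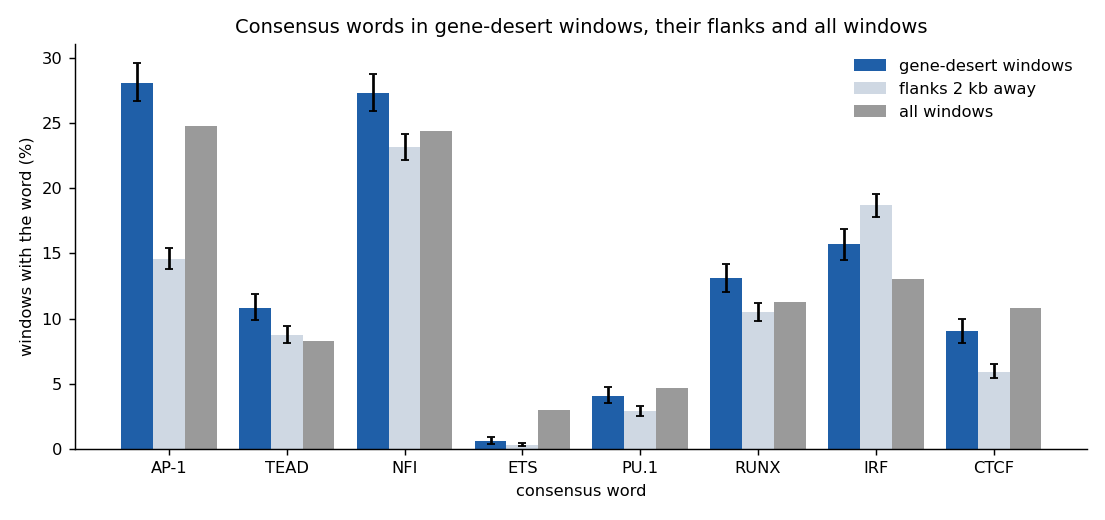
Bars give the percent of gene-desert windows (blue), their flanks 2 kb away (light) and all listed windows (grey) that hold each consensus word, with 95% Wilson intervals on the first pair. AP-1 shows the widest gap to the flanks, 28.1% against 14.6%, and IRF is the 1 word of the 8 that is lower in the windows than in the flanks.

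Within the windows, words of several factors gathered near the summit. AP-1 matches were 1.52 times as dense within 50 bp of the summit as beyond 150 bp, TEAD 1.6 times, CTCF 1.7 times, PU.1 2 times and SP 3.15 times. IRF (0.697), GATA (0.591) and FOX (0.539) matches were sparser at the summit than at the edges. In the central 100 bp, AP-1 words were in 7.93% of windows against 2.95% of the same bases of flanks, a ratio of 2.69, which was above that of the whole window. The central ratios of CTCF (2.14), PU.1 (2) and TEAD (1.74) were also above their whole-window ratios, and that of IRF (0.611) was below it. The GC of summit and edge bases was not compared.

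**Figure D4:**
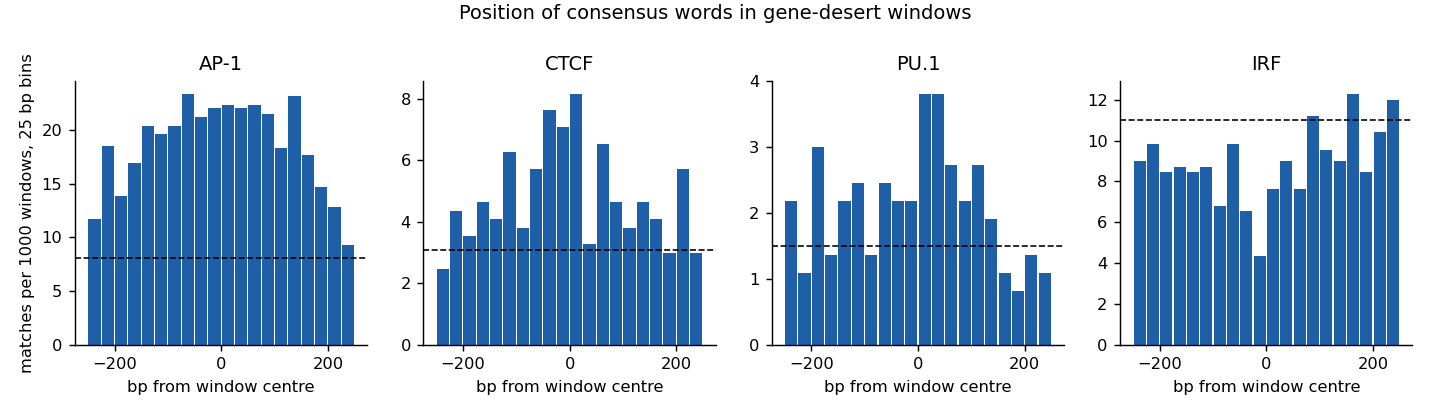
Bars give matches of each word per 1000 gene-desert windows in 25 bp bins, against bp from the window centre, and the dashed line is the mean in the flanks. AP-1 lies above the flank line in all bins and CTCF and PU.1 peak near the centre, whereas IRF dips there.

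The AP-1 share fell with distance from genes. It was 34.5% (95% Wilson interval 32.3 to 36.8%) at 100 to 200 kb, 24.6% (22.3 to 26.9%) at 200 to 500 kb, 20.3% (17 to 24.2%) at 500 kb to 1 Mb and 11.8% (7.62 to 17.9%) beyond 1 Mb. The flanks changed little over the same classes, with 14.9%, 14.4%, 14.5% and 12.9%, so the ratio of windows to flanks went from 2.32 to 1.71, 1.4 and 0.917. Beyond 1 Mb the windows therefore held AP-1 words about as often as the desert sequence beside them.

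The fall was seen at fixed GC and among solitary windows. At 40 to 45% GC the shares were 35%, 24%, 20.6% and 17.4%, the last from 8 of 46 windows, and at 45 to 50% GC they were 35.2%, 26.9%, 20.8% and 7.41%, the last from 4 of 54. Among windows alone in their cluster they were 30.9%, 23.4%, 19.5% and 11.9%. On chromosomes 1 and 10 to 13 they were 37.2%, 33.3%, 23.5% and 11.8%, and on the other chromosomes 33.7%, 22.3%, 19.5% and 11.9%. Among windows with under 5% repeated 24-base words, however, the shares were 40.7% (37.8 to 43.6%), 30.5% (27.2 to 34.1%), 32.4% (25.4 to 40.3%) and 27.3% (13.2 to 48.2%), so that beyond 200 kb no further fall could be told from counting error, with 22 windows left beyond 1 Mb.

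Company went with AP-1 content as well. The word was in 25.1% of windows alone in their cluster (23.5 to 26.8%), in 32.7% of those in clusters of 2 (29.1 to 36.5%) and in 37.4% of those in clusters of 3 or more (33.4 to 41.7%). It was in 21.5% of the 1004 windows more than 100 kb from any other. Windows in larger clusters were also nearer to a start (median 157.8 kb in clusters of 3 or more and 247.1 kb when alone), richer in GC (48.2 and 45.8%) and less repeated (5.74 and 16.8% of 24-base words). Of the other words, TEAD (10.1%, 11.8% and 13.2%), NFI (26.2%, 29.1% and 30.7%) and PU.1 (3.7%, 3.94% and 6.14%) were also highest in the clusters of 3 or more, though the first pair of PU.1 values differed by less than counting error. RUNX (13%, 14.4% and 11.9%), IRF (15.4%, 16.9% and 15.4%) and CTCF (8.78%, 11% and 8.06%) did not follow that order.

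**Figure D5:**
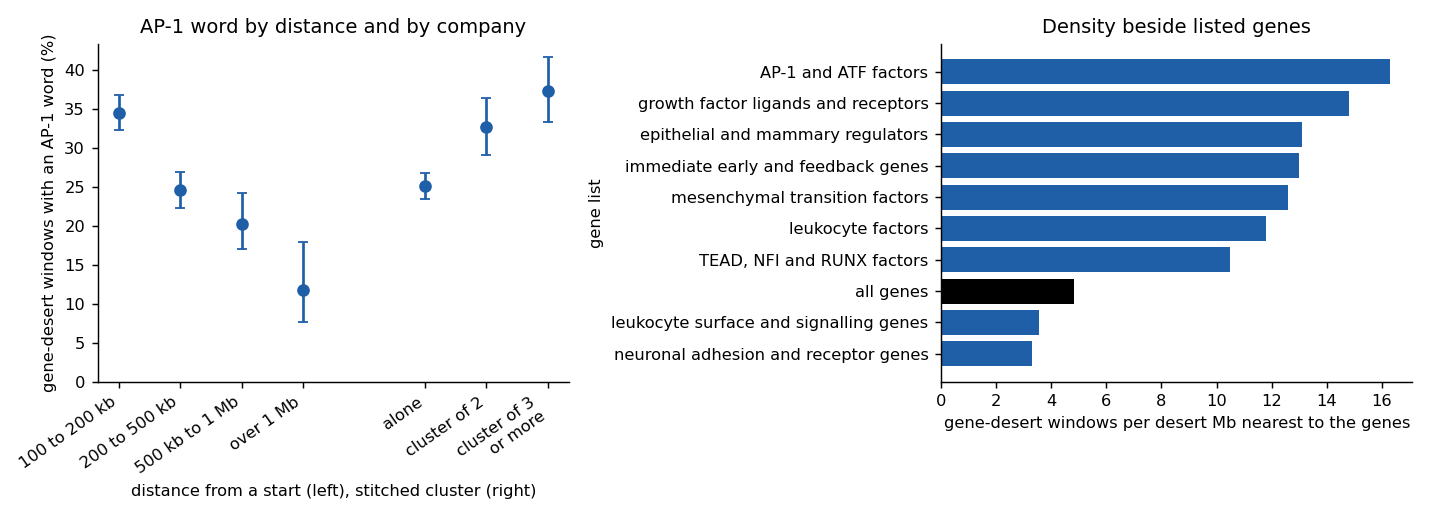
The left panel gives the percent of gene-desert windows with an AP-1 word by distance from the nearest start and by size of the stitched cluster, with 95% Wilson intervals, and falls from 34.5 to 11.8% with distance. The right panel gives gene-desert windows per Mb of the desert sequence nearest to the genes of each list, from 3.31 for neuronal adhesion and receptor genes to 16.3 for AP-1 and ATF genes, with all genes at 4.82 in black.

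Words occurred together in part of the windows. AP-1 and NFI words shared 308 windows (8.39%, against 7.19% of all windows and 3.44% of flanks), AP-1 and RUNX words 168 (4.58, 3.38 and 1.54%), and AP-1 and TEAD words 138 (3.76, 2.61 and 1.23%). These shares lay nearer to the whole list than to the flanks. Among windows with an AP-1 word, TEAD words were in 13.4%, against 9.81% of those without, and RUNX words in 16.3% against 11.9%. IRF words were in 15.1% and 15.9%, and PU.1 words in 4.36% and 3.98%. Windows with AP-1 and neither PU.1 nor IRF made 22.8%, windows with PU.1 or IRF and no AP-1 made 13.9%, and both kinds were together in 5.31%, against 20.5%, 12.7% and 4.38% of all windows. Some 1152 windows (31.4%) held none of the 8 main words, against 34.7% of all windows and 39.5% of flanks, and 51 (1.39%) held 4 or more.

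In a search without preset words, AP-1 and GC-rich words led. Of 18311 words of 8 bases, each counted with its reverse complement and found in at least 1% of gene-desert windows, the 10 with the highest ratio of windows to flanks included 5 that hold TGANTCA, and the 25 highest included 6. GTGAGTCA was in 259 windows (7.06%) and 1.63% of flanks, a ratio of 4.32, and CTGACTCA in 295 (8.04%) and 2.29%, a ratio of 3.51. The highest ratio, 4.77, was that of GCCCCGCC, a GC-rich word of 44 windows (1.2%). The other 4 of the 10 were GC-rich words of at most 48 windows each, and the flanks compared have lower GC.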

How the data were processed

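Pi-ATAC libraries of 192 single cells were made from a mixture of 4T1 cells and splenocytes. Per the labels and the study's methods, the authors mapped reads to mm9 with Bowtie2 2.1.0, removed duplicates with Picard 1.79 and called summits with MACS2. The sources used here do not give the MACS2 version. The deposited unit was the start and end position of 500 bp windows, with a peak name and no score or count. According to the study's methods, the calls ranked best by MACS2 q-value were kept in most datasets. The list has no score, so it is not shown that the unlisted calls were the weaker ones. Chromosome lengths of the reference matched mm9.

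Gene starts came from protein-coding transcripts of protein-coding genes in GENCODE vM1, and long non-coding genes were those typed lincRNA or processed_transcript. Positions, gene-free intervals, clusters joined at 12500 bp and consensus words on both strands were computed with Python 3.11.15, numpy 2.4.6, pandas 2.3.3 and pysam 0.24.0. Island-like windows had at least 50% GC and a CpG ratio of at least 0.6. Flanks lay 2 kb on either side and overlapped no listed window. The reference marks no repeats, so the share of 24-base words found more than once in the genome replaced a planned repeat measure, a choice made after the data were seen. Functions were tested on simulated data. No test between groups was possible, and windows are not replicates, so no p-value is given. Shares have 95% Wilson intervals.

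Genes named were the 15 nearest to most windows, up to 4 of each of 9 lists, those flanking the 8 fullest intervals and the 5 windows at each end of the distance range, and those beside the 6 largest clusters. Of 27 words searched, 8 were main words. Members, lists and words were chosen with earlier results of these data known. Syk, on a list, was not matched.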

Additional observations from a re-analysis of the deposited data

How the results depend on the processing

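The number of gene-desert windows was 6047 with a limit of 50 kb and 1969 with a limit of 200 kb, and stayed within 1.5 times of 3671 under the other rules for starts, gene bodies, summits and chromosomes. With the 50 and 200 kb limits, median GC was 47 and 45.4%, the AP-1 share 30.3 and 22.5%, the share with another window within 12500 bp 39.5 and 22%, and the share in the 50 fullest intervals 12.6 and 26.4%. Leaving out chromosomes 1 and 10 to 13 gave 26.6% with AP-1 and 22.3% in the 50 fullest intervals, of which fewer then remained to choose from. The AP-1 share was 14.8% in the central 200 bp, where fewer bases were searched. Stitching at 5 and 25 kb gave 20.4 and 42.4% with a neighbour, keeping multi-summit windows 34.7%, and merging overlapping windows 29.2%. Leaving out windows with at least 50% repeated 24-base words, a choice made after the data were seen, gave 29.8% with AP-1 and 32.5% with a neighbour. In total, 63 of 87 planned values and 31 of 33 added ones stayed within the counting interval (counts, within 1.5 times). The ratio of windows to flanks ranged from 1.58 to 2.06 for AP-1 and from 0.792 to 0.886 for IRF over the 11 window sets. Neither crossed 1, but most of these sets share most of their windows with the main set. Within the main set, the AP-1 ratio was 0.917 beyond 1 Mb from a start. At 45 to 50% GC, IRF words were in 15.8% of windows and 13.3% of flanks. AP-1 words were more frequent than NFI words in the main set (28.1 and 27.3%) but not with the 200 kb limit (22.5 and 26.4%) or without chromosomes 1 and 10 to 13 (26.6 and 27.4%). No paired analysis was possible because the values come from 1 pooled list and no test, although the groups share replicate numbers.

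Limits are set by the list itself. It is 1 pooled sample without scores, so neither group can be credited with a window, and depth was not analysed here. Calls that were not kept are absent, and by the study's methods these would be the weaker ones. A smaller share of the numbered calls was listed on chromosomes 1 and 10 to 13 (29.5%) than on the others (41.3%), and the strength of the missing calls is unknown. Consensus words are short, match by chance and do not show binding. The nearest gene need not be the target. Starts taken from any transcript of a protein-coding gene, or bodies limited to lincRNA and protein-coding genes, were alternatives added after the data were seen.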

Other observations

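Words outside the main set are given in the order gene-desert windows, flanks and all listed windows. KLF words (CCACACCC) were in 177 windows (4.82%, 95% Wilson interval 4.17 to 5.56%), in 2.58% of flanks and in 6% of all windows. EBF words (TCCCNNGGG), of a B-cell factor, were in 272 (7.41%), 4.32% and 10.6%. The E-box CAGGTG, bound by E-proteins and by ZEB and SNAI repressors, was in 1188 (32.4%), 25.4% and 35.3%. These 3 words were thus above the flanks but below the whole list. The Maf word TGCTGANTC, which can overlap the AP-1 word, was in 122 (3.32%), 1.62% and 3.14%. SOX words (AACAATG) were below the flanks but above the whole list, with 7.98%, 10.8% and 5.4%. GRHL words (AACNGGTT), of an epithelial factor, were in 3.46%, 3.4% and 3.44%. Flanks have lower GC than the windows, and these words were not compared at fixed GC.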
